A study of Mus musculus with 16 samples.

Results

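The 6 genes described here, Prdm1, Tfap2c, Tfap2a, Nanos3, Dnd1 and Kit, act in or mark the first steps of germ cell formation, and were taken by symbol from the 34042 gene rows of a bulk RNA-seq count table of mouse pluripotent stem cells. All 6 were found, each as 1 row. The 16 libraries came from total RNA of 4 kinds of culture. The formative stem cells (FS) were grown in A3XR medium and comprise 6 libraries, 3 from line 5ar1 at passages 10, 12 and 14 and 3 from line 5ar3 at passages 4, 5 and 12. Epiblast stem cells (EpiSC) were grown in AF medium (line AF32, passages 13, 14 and 15) or in AFX medium (line AFX6, passages 5, 8 and 12), with 3 libraries each. Naive embryonic stem (ES) cells, line E14IV-C, were grown in 2iL at passages 12, 13, 15 and 20, which gave 4 libraries. The labels give the media by these abbreviations only. No genetic change is named in the labels for any line, and no library came from cells under germ cell induction: every value below is a level in self-renewing culture. Outside FS each group is 1 line, so line and medium cannot be told apart there, and the libraries of a line are passages of it, so p-values measure the spread between passages (and between the FS lines) rather than between independently derived lines.

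In the mouse embryo, BMP and WNT signals that reach the epiblast around the start of gastrulation induce a few cells to become primordial germ cells. The transcriptional repressor Prdm1 (Blimp1), Prdm14 and the AP-2 factor Tfap2c form the core of the network that sets these cells apart, repressing the somatic programme and allowing pluripotency genes to be expressed again. Nanos3 and Dnd1 are RNA-binding proteins needed for the survival of the new germ cells, and Kit is the receptor tyrosine kinase through which they respond to Kit ligand during migration. None of the 6 is exclusive to germ cells: Prdm1 also acts in visceral and definitive endoderm and other lineages, Tfap2c in trophoblast, Tfap2a in surface ectoderm and neural crest, and Kit in blood, pigment and naive pluripotent cells. The question for which formative cells are of interest is their response to germ cell induction, and the comparison of A3XR with AF and AFX asks where these genes stood before any induction.

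Promoter sequences are shown for Prdm1, Nanos3 and Kit, the 3 genes whose levels were lower in every FS library than in every AF library. Each line gives the 250 bases before a RefSeq transcription start (GRCm38.p6), 5′ to 3′ on the gene's strand. Kit lies at chr5:75574737-75574986 on the plus strand, Nanos3 at chr8:84176553-84176802 on the minus strand and Prdm1 at chr10:44458749-44458998 on the minus strand. Capitals mark the AP-2 letters GCCNNNGGC and the GC box letters GGGCGG; in Nanos3 the matches overlap and form 1 run of capitals.
Kit: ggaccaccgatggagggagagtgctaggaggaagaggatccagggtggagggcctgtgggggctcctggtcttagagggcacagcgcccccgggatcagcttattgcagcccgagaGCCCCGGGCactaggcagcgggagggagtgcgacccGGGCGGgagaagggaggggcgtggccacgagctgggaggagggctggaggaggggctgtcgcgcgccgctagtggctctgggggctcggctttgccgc
Nanos3: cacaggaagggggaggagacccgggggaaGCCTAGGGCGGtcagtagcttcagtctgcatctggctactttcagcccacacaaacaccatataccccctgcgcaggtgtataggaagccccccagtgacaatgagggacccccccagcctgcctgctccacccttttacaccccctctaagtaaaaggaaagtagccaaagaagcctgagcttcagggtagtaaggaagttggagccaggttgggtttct
Prdm1: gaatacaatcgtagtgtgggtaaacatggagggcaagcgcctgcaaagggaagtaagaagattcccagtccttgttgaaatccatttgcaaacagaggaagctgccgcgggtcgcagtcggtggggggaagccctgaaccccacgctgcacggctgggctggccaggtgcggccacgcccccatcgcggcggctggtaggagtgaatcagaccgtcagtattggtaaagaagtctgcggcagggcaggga
Over the 32851 promoter windows of this length in the RefSeq table, 13.7% held the AP-2 letters and 32.7% the GC box, on either strand. Kit and Nanos3 each held 1 match of both. The Prdm1 window held no match of any of the 5 motifs searched, which also included the octamer ATGCAAAT (in 1.60% of windows), the TCF letters CTTTGAT (3.21%) and the Prdm1 letters AGNGAAAG (7.30%). Base composition differed among the windows: the Kit window was 70.8% G or C, the Prdm1 window 59.2% and the Nanos3 window 56.4%, and the ratio of observed to expected CpG was 0.601 in Kit, 0.7102 in Prdm1 and 0.151 in Nanos3. A match describes letters only. Kit has another start, whose window at chr5:75574741-75574990 overlaps the one shown. It also held 1 match of both motifs, with a CpG ratio of 0.631. Of the 6 genes 4 were in the promoter table: Tfap2a, with 2 starts that each hold 1 GC box match, is the other, and Tfap2c and Dnd1 are named only.

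On GRCm38 (mm10) with GENCODE M21, Prdm1 (ENSMUSG00000038151) spans chromosome 10, 44437177 to 44528501, on the minus strand. Tfap2c (ENSMUSG00000028640) spans chromosome 2, 172549593 to 172558622, on the plus strand, and Tfap2a (ENSMUSG00000021359) chromosome 13, 40715302 to 40738376, on the minus strand. Nanos3 (ENSMUSG00000056155) spans chromosome 8, 84173731 to 84185217, on the minus strand. Dnd1 (ENSMUSG00000044595) spans chromosome 18, 36763671 to 36766214, on the minus strand. Kit (ENSMUSG00000005672) spans chromosome 5, 75574916 to 75656722, on the plus strand. Counts are whole-gene counts, so no exon, intron or isoform can be named. Dnd1 overlaps Wdr55 on the opposite strand, Tfap2a overlaps the antisense genes Gm26688, Gm47061 and Gm47067, and Nanos3 hosts Mir181c and Mir181d on its own strand. The library kit keeps strand, but the strand setting of the counting is not given in the sources used here, so the values of Dnd1, Tfap2a and Nanos3 are uncertain to that extent.

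Library totals ran from 22069338 to 33290250 assigned counts. One mitochondrial ribosomal RNA gene, mt-Rnr2, took 9.96% to 38.1% of a library's counts, the highest share in the ES library at passage 12 and 17.7% to 19.0% in the other 3 ES libraries. Levels are given as CPM, counts relative to library size after scaling by the trimmed mean of M values (TMM), which limits the weight of such single genes. Pou5f1, the core pluripotency factor, was at 345 CPM or more in every FS library. Its means were 722 CPM in FS, 779 in AFX, 522 in AF and 717 in ES cells. The AF libraries (506 to 532 CPM) lay below all AFX (676 to 856) and ES libraries (637 to 770). The FS lines did not overlap, at 758 to 1279 CPM in 5ar1 and 345 to 550 CPM in 5ar3. Esrrb, a naive factor, averaged 638 CPM in ES cells. It reached at most 2.17 CPM in an FS library, 1.18 in an AFX library and 0.771 in an AF library. A gene was called changed when the adjusted p (Benjamini-Hochberg over 18555 genes) of edgeR's quasi-likelihood test was under 0.05. All 6 genes passed the filter on low counts. For Tfap2a this was only because of its level in ES cells, the other 5 also passed without the ES libraries.

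Prdm1, the repressor at the top of the germ cell network, had the largest fold difference of the 6 genes between groups, 168.9-fold between FS and ES cells. In FS line 5ar1 it stood at 0.148, 0.159 and 0.0677 CPM at passages 10, 12 and 14, and in 5ar3 at 0.381, 0.0368 and 0.0471 CPM at passages 12, 4 and 5, which rest on 1 to 10 counts a library. The AFX libraries gave 2.77, 0.571 and 0.339 CPM at passages 12, 5 and 8. The AF libraries gave 3.76, 15.4 and 6.76 CPM at passages 13, 14 and 15. ES cells held 26.9, 18.5, 27.0 and 26.2 CPM at passages 12, 13, 15 and 20. The group means were therefore 0.140 ± 0.129 (SD, n = 6) in FS, 1.23 ± 1.34 (SD, n = 3) in AFX, 8.65 ± 6.06 (SD, n = 3) in AF and 24.7 ± 4.11 CPM (SD, n = 4) in ES. FS lay below AF and ES in every library. FS and AFX overlapped, since the highest FS library exceeded the lowest AFX library.

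Tfap2c, the AP-2 factor that acts beside Prdm1, was low in all 3 primed and formative groups and high in ES cells. FS libraries gave 0.445, 0.255 and 0.237 CPM in 5ar1 and 0.761, 1.22 and 0.754 CPM in 5ar3, in the passage orders used for Prdm1. AFX gave 2.46, 1.64 and 0.949 CPM and AF gave 1.25, 1.503 and 0.779 CPM. ES cells gave 44.2, 47.6, 61.9 and 55.8 CPM. FS overlapped both EpiSC groups through line 5ar3, while line 5ar1 lay below all 6 EpiSC libraries. Its paralogue Tfap2a was near the limit of detection outside ES cells, with 1 to 7 counts in each FS library (0.168 ± 0.111 CPM, SD, n = 6), 0 to 3 in each AFX library and 0 to 4 in each AF library. ES cells held 0.898, 2.21, 1.64 and 3.02 CPM of Tfap2a.

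Of the RNA-binding factors, Nanos3 gave 2 to 12 counts in each FS library, or 0.148, 0.0956, 0.406, 0.457, 0.0737 and 0.0942 CPM. The AFX libraries gave 0.742, 0.0714 and 0.271 CPM and the AF libraries 0.546, 0.752 and 0.672 CPM. ES cells gave 2.49, 1.81, 3.78 and 2.72 CPM. Every FS library was below every AF library for Nanos3, whereas AFX spread over the range of both. Dnd1, which protects transcripts in early germ cells, gave 0.111, 0.446, 0.508, 0.571, 0.516 and 0.0471 CPM in FS, 0.169, 0.143 and 0.102 CPM in AFX, 0.386, 0.458 and 0.283 CPM in AF, and 4.42, 2.44, 4.51 and 5.19 CPM in ES. Here FS spanned the values of both EpiSC groups, with 1 to 15 counts a library.

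Kit, the receptor, was the most abundant of the 6. It stood at 14.6, 8.25 and 3.42 CPM in 5ar1 and at 10.01, 14.2 and 9.66 CPM in 5ar3. AFX libraries gave 20.1, 6.36 and 5.999 CPM, with the high value at passage 12. AF libraries gave 24.98, 56.9 and 33.2 CPM, and ES libraries 300.6, 400.6, 462.7 and 373.0 CPM. FS (3.42 to 14.6 CPM) and AFX (5.999 to 20.1 CPM) overlapped, AF lay above every FS library, and ES cells lay above all others. Per kilobase of annotated exon, mean levels in ES cells ordered the genes as Kit (43.1 CPM per kb), Tfap2c (14.2), Prdm1 (4.42), Nanos3 (2.92), Dnd1 (1.72) and Tfap2a (0.396). In FS the same scale gave Kit 1.12, Nanos3 0.230, Tfap2c 0.166, Dnd1 0.152, Tfap2a 0.0343 and Prdm1 0.0251 CPM per kb, so that Prdm1 and Tfap2a came last; they rest on 23 and 26 counts over the 6 FS libraries and their order is within the spread (SD 0.0231 and 0.0225).

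**Figure D1:**
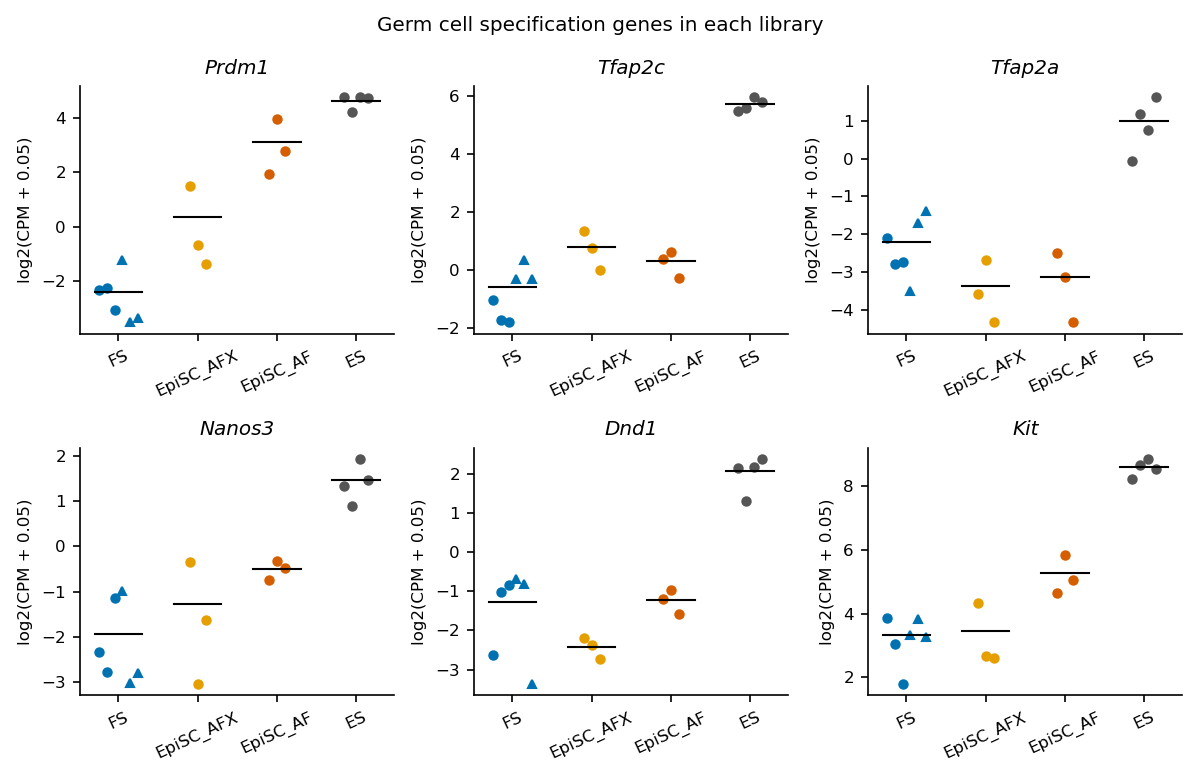
Level of the 6 genes in each of the 16 libraries (y axes, log2 of CPM plus 0.05) by group (x axes), with 1 point a library, triangles for FS line 5ar3 and a bar at the group's mean CPM. The 4 ES libraries lie above every other library for all 6 genes, and for Prdm1 the AF libraries (3.76 to 15.4 CPM) lie above the FS libraries (0.0368 to 0.381 CPM).

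Against AFX epiblast stem cells, Prdm1 and Tfap2c were lower in FS and the other 4 genes did not pass the test. Prdm1 was lower by a log2 difference of -3.08 (SE 0.67, 95% interval -4.49 to -1.66, edgeR adjusted p = 0.0126), or 8.45-fold. Tfap2c was lower by -1.48 (SE 0.39, interval -2.31 to -0.65, edgeR adjusted p = 0.0379), or 2.79-fold. Thus 2 of 6 were called lower and 0 higher, where 2.10% of all genes tested were lower and 2.89% higher, and 3 of 6 had an unadjusted p under 0.05. No member lay wholly below AFX (0 of 6), as 4.43% of all genes did. In bulk RNA, fewer cells with a transcript and less transcript per cell cannot be told apart. Neither call held throughout. The Prdm1 call was lost without the AFX library at passage 12 (log2 difference -1.65, edgeR adjusted p = 0.211) and with FS line 5ar3 alone (-2.91, edgeR adjusted p = 0.0660). The Tfap2c difference was -2.44 with 5ar1 alone. Its call was lost with 5ar3 alone (-0.88, edgeR adjusted p = 0.129), with total-count scaling (0.0836), with only these groups in the fit (0.157) and on leaving out any 1 of 7 libraries (all FS libraries except 5ar3 passage 4, and AFX passages 12 and 5), with adjusted p from 0.0503 to 0.212.

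The genes that missed the threshold against AFX differed in how much they leave undecided. Kit had a log2 difference of -0.11 (SE 0.41, edgeR adjusted p = 0.941), with an interval from -0.99 to 0.76. Dnd1 was at 1.41 (SE 0.59, interval 0.16 to 2.65, edgeR adjusted p = 0.205) and Tfap2a at 1.73 (SE 0.88, interval -0.13 to 3.58, edgeR adjusted p = 0.313), both with the FS mean above that of AFX. Leaving out 1 library moved Tfap2a between 1.17 (AFX passage 8 out) and 2.96 (AFX passage 5 out). Nanos3 was at -0.75 (SE 0.62, interval -2.05 to 0.55, edgeR adjusted p = 0.594). These intervals do not show equal levels.

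Against AF epiblast stem cells, Prdm1 and Kit were lower in FS. Prdm1 differed by -5.89 (SE 0.62, interval -7.19 to -4.59, edgeR adjusted p = 7.54e-06), or 59.3-fold, and stayed called when any library was left out; without AF passage 14 the log2 difference was -5.17. Kit differed by -1.94 (SE 0.39, interval -2.77 to -1.11, edgeR adjusted p = 0.00247), or 3.83-fold, and the 2 groups did not overlap. This makes 2 of 6 called lower and 0 higher, where 8.81% of all genes tested were lower and 7.84% higher. Counted by libraries alone, 3 of 6 lay wholly below AF, against 11.1% of all genes. The third was Nanos3, at -1.60 (SE 0.58, interval -2.82 to -0.37, edgeR adjusted p = 0.0698). It passed the threshold under DESeq2 (adjusted p = 0.0416) and without FS 5ar1 passage 14 (edgeR adjusted p = 0.0383) or 5ar3 passage 12 (0.0328), the FS libraries with 12 counts each.

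Tfap2c was at -0.97 against AF (SE 0.41, interval -1.83 to -0.11, edgeR adjusted p = 0.118) and was called with line 5ar1 alone (-1.93, edgeR adjusted p = 0.00425), with 1 mean per line (0.0149) and without 5ar3 passage 4 (0.0256). Tfap2a was at 1.25 (SE 0.82, interval -0.48 to 2.97, edgeR adjusted p = 0.336), and moved between 0.73 (AF passage 15 out) and 2.13 (AF passage 13 out). Dnd1 was at -0.01 (SE 0.51, interval -1.10 to 1.07, edgeR adjusted p = 0.995). The comparisons of FS with AFX, AF and ES share the 6 FS libraries, so their values are set side by side and are not independent of one another.

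The AFX and AF lines, both labelled epiblast stem cells, differed in Prdm1 and Kit. Prdm1 was lower in AFX by -2.81 (SE 0.64, edgeR adjusted p = 0.0173), or 7.02-fold, and Kit by -1.82 (SE 0.48, edgeR adjusted p = 0.0407), or 3.54-fold, each with no overlap between libraries. That is 2 of 6 genes lower and 0 higher, where 2.83% of all genes tested were lower and 1.43% higher. Dnd1 also lay lower in every AFX library (-1.42, edgeR adjusted p = 0.268), as 17.9% of all genes did. Prdm1 lost its call without AF passage 14 (log2 difference -2.09, edgeR adjusted p = 0.116), AFX passage 5 (-2.47, 0.103) or AFX passage 8 (-2.37, 0.0865), and with only these groups in the fit (0.120). Kit lost its call without AF passage 14 (-1.42, edgeR adjusted p = 0.198), AF passage 15 (-1.92, 0.0732), AFX passage 5 (-1.55, 0.185) or AFX passage 8 (-1.54, 0.186), and with total-count scaling (0.0647), no low-count filter (0.132) or only these groups in the fit (0.139). Without AFX passage 12 the differences widened to -4.24 for Prdm1 and -2.63 for Kit.

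Of the 5 genes that passed the filter also without ES cells, all 5 were lower in FS than in ES cells, with no overlap. Tfap2a entered the test only through its level in ES cells, so its difference there was fixed by the filter and is given as a description. The log2 difference was -7.40 for Prdm1 (SE 0.61, edgeR adjusted p = 1.34e-08), or 168.9-fold. It was -6.43 for Tfap2c (SE 0.37, edgeR adjusted p = 1.42e-10), or 86.4-fold (-7.40 with 5ar1 alone, -5.83 with 5ar3 alone), and -5.26 for Kit (SE 0.40, edgeR adjusted p = 7.21e-09), or 38.4-fold. Nanos3 at -3.63 (SE 0.53, edgeR adjusted p = 1.18e-05) and Dnd1 at -3.46 (SE 0.43, edgeR adjusted p = 1.88e-06) were 12.4-fold and 10.98-fold lower. Tfap2a stood at -3.54 (SE 0.55). This contrast moved much of the transcriptome: 29.9% of all genes tested were called lower and 32.9% higher, and 22.0% lay lower with no overlap.

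Both EpiSC groups were also called below ES cells for these 5 genes, where 26.2% of all genes were lower in AFX and 27.0% in AF. The libraries did not overlap for any of the 5, as 28.5% of all genes lay wholly lower in AFX and 29.8% in AF. The difference was smallest for Prdm1 in AF, at -1.51 (edgeR adjusted p = 0.0294), or 2.85-fold. This call was lost without AF passage 13 (edgeR adjusted p = 0.129), AF passage 15 (0.102) or ES passage 12 (0.0549), 15 (0.0566) or 20 (0.0516), and with total-count scaling (0.102) or no low-count filter (0.0735). Without AF passage 14 the difference was -2.24. For Kit it was -3.32 in AF (edgeR adjusted p = 2.25e-05) and -5.15 in AFX (edgeR adjusted p = 5.51e-07). Without AFX passage 12, the AFX differences from ES widened from -4.32 to -5.76 for Prdm1, from -2.88 to -3.94 for Nanos3 and from -5.15 to -5.96 for Kit. Tfap2a, again fixed by the filter, was at -5.27 in AFX (-6.50 without passage 5) and -4.79 in AF (-5.67 without passage 13).

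**Figure D2:**
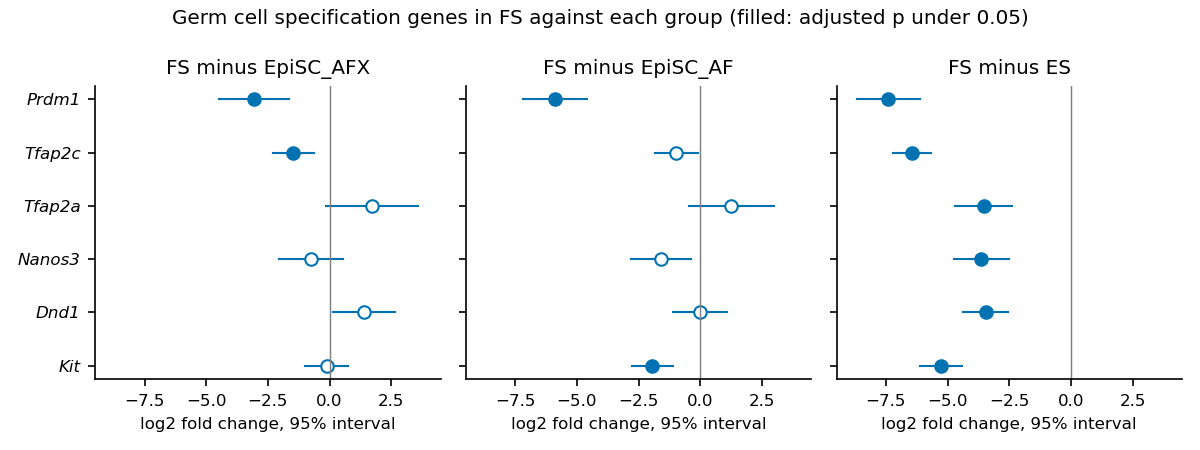
Log2 difference of FS from AFX, AF and ES cells for each of the 6 genes (x axis), with 95% intervals. Filled points passed an adjusted p of 0.05. In the ES comparison every point lies below 0, from -7.40 for Prdm1 to -3.46 for Dnd1 (Tfap2a passed the filter only through ES cells), while in the AFX and AF comparisons 2 of 6 are filled in each.

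Between the FS lines, Tfap2c was lower in 5ar1 than in 5ar3, at 0.312 ± 0.115 against 0.910 ± 0.265 CPM (SD, n = 3 each). The log2 difference was -1.56 (SE 0.41, edgeR adjusted p = 0.0435), with no overlap between the lines, as 10.4% of all genes lay lower with none. It was 1 of 6 genes called, where 2.02% of all genes tested were lower and 1.86% higher. The call was lost without 5ar1 passage 12 (edgeR adjusted p = 0.167) or 14 (0.188), or 5ar3 passage 4 (0.201) or 5 (0.0702), and with total-count scaling (0.137) or only these groups in the fit (0.174). The 5 other genes had differences from -0.68 (Tfap2a) to 0.03 (Nanos3) and were not called. Passage and line are partly entangled, since the low passages 4 and 5 come only from 5ar3.

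Prdm1 and Kit also differed between libraries of the same EpiSC line, and markers of endoderm, a tissue in which Prdm1 acts, differed with them. The summed level of 11 endoderm markers was 632.3, 349.2 and 229.8 CPM in AF passages 14, 15 and 13, and 154.3, 6.46 and 2.68 CPM in AFX passages 12, 5 and 8. Prdm1 fell in exactly that order over the 6 EpiSC libraries, from 15.4 to 0.339 CPM, and Kit did so too, from 56.9 to 5.999 CPM. The summed trophoblast markers had the identical order, at 147.0, 82.5, 50.5, 38.6, 22.2 and 19.8 CPM. Of these sums, Eomes alone gave 125.7, 65.8, 35.3, 21.1, 14.9 and 13.1 CPM. The mesoderm sums differed from this order only in AF passages 13 (124.1 CPM) and 15 (49.1 CPM). The endoderm marker sum was 0.956 to 9.47 CPM in FS and 4.91 to 8.46 CPM in ES cells, where Prdm1 and Kit were at their highest. Cer1, a secreted antagonist made by anterior endoderm, reached 374.7 CPM in AF passage 14 and 90.97 CPM in AFX passage 12. In the same libraries Sox17 reached 60.8 and 13.1 CPM. Not all markers of the list rose: Afp, Ttr and Sox7 had highest EpiSC values of 0.193, 0.0654 and 0.161 CPM. Sox7 reached 0.228 CPM in FS. Afp was at 0 in all ES libraries and Ttr at 0 in all FS libraries. In each comparison, only markers that pass the filter without the other group were counted. FS was lower in 7 of 7 endoderm markers against AF, beside 8.81% of all genes tested. Against AFX it was lower in 2 of 8, beside 2.10% of all genes. These were Sox17 (-4.22, edgeR adjusted p = 0.0331) and Cer1 (-4.89, edgeR adjusted p = 0.0200). In AFX passages 5 and 8, Sox17 was at 0.0714 and 0.102 CPM and Cer1 at 2.00 and 0.407 CPM. Those values lay within the FS ranges, 0 to 0.495 CPM for Sox17 and 0.0319 to 3.39 CPM for Cer1. The part of these markers in the Prdm1 and Kit differences was not tested.

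**Figure D3:**
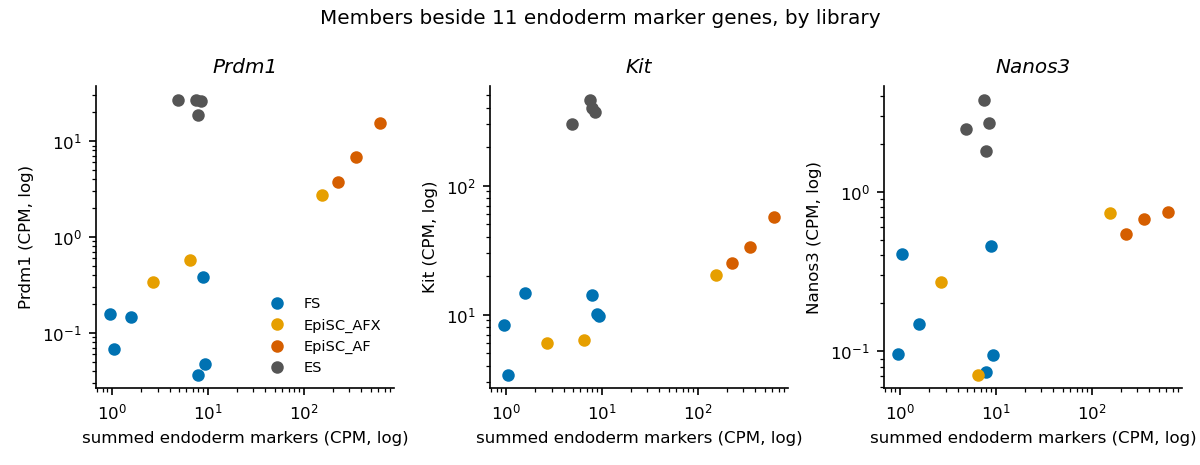
Level of Prdm1, Kit and Nanos3 (y axes, CPM, log) against the summed level of 11 endoderm markers (x axis, CPM, log) in the 16 libraries, with points coloured by group. In the 6 EpiSC libraries Prdm1 and Kit follow the order of the sum from 2.68 to 632.3 CPM, and the 4 ES libraries combine sums of 4.91 to 8.46 CPM with the highest levels of all 3 genes.

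Markers of the other tissues that express these genes were read and counted in the same way; of all genes tested, 8.81% were lower and 7.84% higher in FS than in AF, and 2.10% lower and 2.89% higher than in AFX. Mesoderm markers summed to 49.1 to 179.2 CPM in AF, 3.49 to 18.2 in AFX, 1.89 to 4.72 in FS and 7.63 to 14.5 in ES, and 3 of 5 were lower in FS than in AF and 1 of 6 lower than in AFX. Surface ectoderm markers summed to 80.9 to 332.9 CPM in FS, 247.5 to 483.3 in AFX, 496.1 to 612.2 in AF and 52.0 to 70.6 in ES, and 4 of 8 were lower in FS than in AF and 2 of 9 lower than in AFX. Trophoblast markers summed to 26.3 to 53.8 CPM in FS, 19.8 to 38.6 in AFX, 50.5 to 147.0 in AF and 41.7 to 49.0 in ES; against AF 4 of 6 were lower and 1 higher in FS, and against AFX 0 of 7 were called. Neural crest markers summed to 41.3 to 98.6 CPM in FS, 61.5 to 77.0 in AFX, 57.9 to 80.3 in AF and 131.0 to 168.7 in ES, and 1 of 8 was higher in FS than in AF and 1 of 10 higher than in AFX. Fibroblast markers, which feeder cells would carry, summed to 17.4 to 34.7 CPM in FS, 12.8 to 20.9 in AFX, 33.4 to 80.2 in AF and 0.587 to 1.11 in ES, with 3 of 6 lower and 1 higher in FS than in AF, and 1 of 7 higher than in AFX. Of the defining markers, Krt5 and Krt14 were at 0 in all ES libraries and gave at most 3 and 4 counts in any other. Elf5 was at 0 in all FS, AFX and ES libraries, and Tpbpa at 0 in all FS and all ES libraries. In AF passage 13, Krt18, Krt8 and Krt19 gave 259.8, 194.6 and 130.3 CPM of the surface ectoderm sum of 612.2 CPM. The part of these markers in the levels of the 6 genes was not tested.

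Among 18 other genes of the early germ cell network, 0 were higher and 2 lower in FS than in AFX, where 2.89% and 2.10% of all genes tested were. They were Itgb3, an integrin subunit (-2.63, edgeR adjusted p = 0.00346), and Ifitm3, an early germ cell surface marker (-1.84, edgeR adjusted p = 0.00950). Against AF, 4 of 18 were higher and 7 lower, beside 7.84% and 8.81% of all genes. The 4 largest by size were all lower: T, the mesoderm factor that responds to WNT (-6.44, edgeR adjusted p = 5.15e-05), the chemokine receptor Cxcr4 (-3.80, edgeR adjusted p = 0.00241), Ifitm1 (-2.68, edgeR adjusted p = 0.000417) and Ifitm3 (-2.40, edgeR adjusted p = 0.000325). The 4 called higher had log2 differences from 1.08 to 2.32. The list's median against AF was 0.19, of the opposite sign to the larger count of lower calls. Against ES cells, 3 of the 18 (Prdm14, Dppa3 and Tcl1) passed the filter only through ES, and of the other 15, 2 were higher and 10 lower, beside 32.9% and 29.9% of all genes.

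Prdm14, the third core factor, gave 2 counts over the 6 FS libraries, 2 over the AFX and 5 over the AF libraries, but 49.6 ± 6.64 CPM in ES cells (SD, n = 4). Dppa3 (Stella), the early germ cell marker, gave 1 count in FS, 1 in AFX and 0 in AF, a total that allows at most 0.0333 CPM in AF if the floor is set at 3 counts over the group, and 24.2 ± 10.8 CPM in ES cells (SD, n = 4). Of 14 later germ cell genes 7 passed the filter, 3 of them (Ddx4, Dazl and Mael) only through ES cells, so that these 3 could only be lower than in ES and had few counts elsewhere. Of the other 4, 3 were lower in FS than in ES, where 29.9% of all genes tested were lower. Against AFX and against AF 0 of the 7 were called. Of all genes, 2.10% were lower and 2.89% higher than in AFX, and 8.81% and 7.84% than in AF. A list of 7 genes is too short to set 0 calls apart from these shares. The 14 genes together summed to at most 3.32 CPM in any FS library.

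Part of the inducing pathway was lower in FS than in AF, while 17 of its 27 listed genes were not called. Of 27 BMP and WNT pathway genes, 0 were higher and 10 lower, beside 7.84% and 8.81% of all genes; Wnt3a passed the filter only with AF included, and without it the count was 9 of 26. The largest of those 9 were Bmp2 (-4.75, edgeR adjusted p = 0.00166), the BMP antagonist Nog (-3.24, edgeR adjusted p = 0.00201) and Wnt3 (-2.44, edgeR adjusted p = 0.00114). The Wnt3a difference from AF (-4.96) was fixed by the filter and is given as a description. Against AFX 1 of 27 was called, Wnt3, the epiblast WNT ligand (-2.26, edgeR adjusted p = 0.00732), a share near the 2.10% of all genes lower there. Against ES cells 13 of the 24 that passed without ES were higher and 4 lower, beside 32.9% and 29.9% of all genes. Otx2, a formative factor that restrains germ cell entry, averaged 175 ± 27.5 CPM over the FS libraries (SD, n = 6), 103 ± 11.8 in AFX (SD, n = 3), 141 ± 51.0 in AF (SD, n = 3) and 14.9 ± 4.49 in ES (SD, n = 4). It was higher in FS than in ES (log2 difference 3.55, edgeR adjusted p = 1.55e-09) and missed the threshold against AFX (0.76, edgeR adjusted p = 0.0743) and AF (0.31, edgeR adjusted p = 0.407).

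Kit ligand, Kitl, lay at 1.71 ± 1.43 CPM in FS (SD, n = 6), 1.13 ± 0.837 in AFX (SD, n = 3), 10.03 ± 6.80 in AF (SD, n = 3) and 0.905 ± 0.300 in ES (SD, n = 4). It was the 1 of 15 Kit ligand and signalling genes lower in FS than in AF (-2.55, SE 0.57, edgeR adjusted p = 0.00504), where 8.81% of all genes were lower, and 0 were higher; against AFX 0 of 15 were called. Ligand and receptor thus were both lower in FS than in AF, while in ES cells Kit was highest and Kitl lowest by mean. Against ES, 5 of the 15 were higher in FS and 6 lower, near the 32.9% and 29.9% of all genes.

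Paralogues and partners of the other members are read against the share of all genes called, 2.89% higher and 2.10% lower against AFX and 7.84% higher and 8.81% lower against AF; with lists of 8 to 13 genes, 0 calls against AFX is near that share. In the AP-2 family, Tfap2b gave 1, 2, 12 and 0 counts over the FS, AFX, AF and ES libraries and Tfap2e gave 5, 8, 3 and 3, so both fell to the low-count filter; Tfap2d was not analysed here. Of 8 AP-2 cofactors and inhibitors 0 were called against AFX, and 2 were lower than in AF, the coactivators Cited1 (-1.40, edgeR adjusted p = 0.00323) and Cited2 (-1.25, edgeR adjusted p = 0.0278). Of 8 Prdm1 partners 0 were called against AFX and 2 were higher than in AF, the corepressor Tle3 (0.96, edgeR adjusted p = 0.0167) and the histone methyltransferase Ehmt2 (0.86, edgeR adjusted p = 0.00313). Of 13 Nanos and Dnd1 partners 0 were called against AFX and 3 were lower than in AF, the deadenylase subunits Cnot8 (-1.10), Cnot7 (-0.71) and Cnot6 (-0.65). Nanos1 averaged 3.55 ± 1.10 CPM in FS (SD, n = 6), and of the FS comparisons passed in that with ES alone (-0.78, edgeR adjusted p = 0.0124), and Nanos2 gave 1 count in FS and 0 elsewhere. Against ES cells, where 32.9% of all genes were higher and 29.9% lower, the cofactor list had 0 higher and 2 lower of 8, the Prdm1 partners 1 higher and 1 lower of 8, and the Nanos and Dnd1 partners 1 higher and 7 lower of 13.

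**Figure D4:**
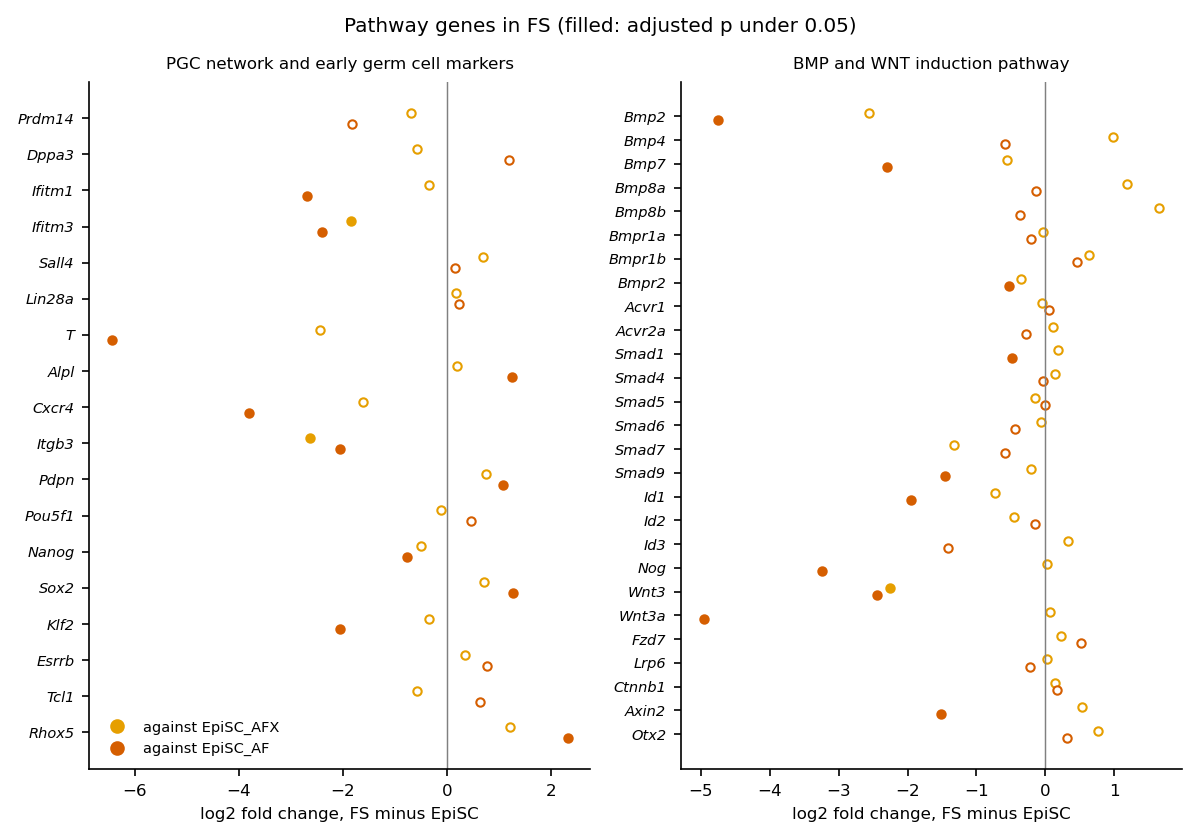
Log2 difference of FS from AFX and from AF (x axes) for 18 genes of the early germ cell network and 27 genes of the BMP and WNT pathway, with genes called at an adjusted p under 0.05 filled. Against AF, 10 of the 27 BMP and WNT genes were called lower and 0 higher. Without Wnt3a, which passed the filter only with AF included, the count was 9 of 26. Of the germ cell network, 7 of 18 were lower and 4 higher than in AF. Of all genes tested, 8.81% were lower and 7.84% higher than in AF. Against AFX, 1 of 27 and 2 of 18 were lower and 0 higher, beside 2.10% and 2.89% of all genes.

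The genes whose levels most resembled each member were found over the 16 libraries by Pearson's r of log2 CPM, among genes of at least 1 CPM on average. The libraries fall into the study's groups and ES cells were highest for every member, so the points share that split. Prdm1 was nearest to Upp1 (r = 0.98), Tfpi (0.96) and Sp5 (0.96), which gave 0.96, 0.94 and 0.92 over the 12 FS and EpiSC libraries. Kit was nearest to Ror2 (0.98), Vwf (0.98) and Axin2 (0.98), which gave 0.89, 0.86 and 0.88 without ES. Tfap2c was nearest to Exoc6b (0.99), Hacd2 (0.98) and Erlin1 (0.98), which gave 0.87, 0.81 and 0.87 without ES. Nanos3 was nearest to M1ap (0.94), Oas1a (0.94) and Gdf3 (0.94), which gave 0.82, 0.81 and 0.82 without ES. Dnd1 was nearest to Gm43860 (0.97), Entpd7 (0.95) and Sult6b1 (0.95), which gave 0.88, 0.83 and 0.66. Tfap2a was nearest to Zfp28 (0.96), Cnga4 (0.95) and Zfp819 (0.95), which gave 0.76, 0.65 and 0.72. Over the 12 FS and EpiSC libraries alone the nearest genes to Prdm1 were Foxq1 (0.99), Mixl1 (0.98), a mesendoderm factor, and Cobll1 (0.98). Among the members themselves, the closest pairs over those 12 libraries were Prdm1 with Kit (0.80) and Prdm1 with Nanos3 (0.77), and the rest ran from -0.65 to 0.55.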

How the data were processed

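Cells were lysed in Trizol, RNA was purified on columns, and a directional library kit was used, per the labels' protocols. The deposited table holds whole-number counts per gene, which the authors made with tools that the submitters' processing notes name without roles: Trim Galore, TopHat2 2.1.0, featureCounts 1.5.0 and the build mm10. The annotation release and strand setting are not given in the sources used here. The 6 sample columns of the table that match no label were not used. Of 34042 rows, 2003 were 0 in all libraries. Libraries of a line differed by more than sampling noise (lowest chi-square per degree of freedom 8.40), so none was counted as a repeat.

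From the counts, edgeR 4.0.16 (R 4.3.3, limma 3.58.1) was run with TMM scaling, its default filter (minimum count 10), 1 quasi-likelihood fit of all 16 libraries with a mean per group, and Benjamini-Hochberg adjustment over 18555 genes. The line comparison split FS into a mean per line. DESeq2 1.42.0 was an alternative. Standard errors came from the F statistic. CPM used TMM-effective library sizes. Intervals are 95%. Floors of 3 counts cover counting error only.

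Sequences came from RefSeq and positions from GENCODE M21. All 6 genes were named, with paralogues, Prdm14, Dppa3, Kitl and Otx2, up to 4 of the largest called genes of each of 8 pathway lists against AFX and AF, and the 3 most alike genes of each member. The 6 marker lists cover other cell types. The members and lists were chosen with earlier results of these data known. On simulated counts for 18555 genes, 200 of them changed by a log2 difference of 2, 82.0% were recovered for FS against AFX, 82.5% against AF and 84.5% against ES, with 5.20%, 3.51% and 1.74% false calls. The changed genes were drawn from all genes tested and changed in FS only. These rates therefore do not describe genes with as few counts as Prdm1, Tfap2a, Nanos3 and Dnd1 have in FS, or contrasts that move much of the transcriptome.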

Additional observations from a re-analysis of the deposited data

Results flagged for a closer look

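The Prdm1 level of 18.5 CPM in the ES library at passage 13 stood apart from the other 3 ES libraries (26.2 to 27.0 CPM): its gap to the nearest took 90.8% of the group's range. The Prdm1 level of 0.381 CPM in FS 5ar3 at passage 12 stood above the other 5 FS libraries (0.0368 to 0.159 CPM), with a gap of 64.4% of the range, on 10 counts. Of 12 groups of libraries examined for such gaps, chance flags about 1 in 20.

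Tfap2c differed between the FS lines, lower in 5ar1 than in 5ar3 by a log2 difference of -1.56 (edgeR adjusted p = 0.0435, lower in 3 of 3 libraries), by a test of the difference itself.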

How the results depend on the processing

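No paired analysis was possible because replicate numbers only follow the order of deposit and pair no libraries. Over 616 recomputed log2 differences of the 6 genes, 554 kept their direction and side of the threshold, 36 lost the threshold, 6 gained it and 20 changed sign. The 6 calls of FS and of AFX against ES (Tfap2a included) kept in number with any library left out (6 each), those of AF against ES ranged from 5 to 6, and those of FS against AF from 2 to 3. The 2 calls against AFX became 1 with scaling by total counts only, 1 with only the groups compared in the fit, and 0 with line 5ar3 alone, and ranged from 0 to 2 when a library was left out. The 2 calls of AFX against AF became 1 with total counts, 1 with no low-count filter and 0 with only the groups compared, and ranged from 0 to 2. The 1 call between FS lines became 0 with total counts and 0 with only the groups compared, and ranged from 0 to 1. A filter of at least 1 CPM on average tested only 4 of the 6 genes. The causes were not tested.

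Signs changed only in differences that were not called. Kit against AFX was 0.0545 with 5ar3 alone and ranged from -0.41 to 0.70 on leaving out a library, and Nanos3 from -1.22 to 0.30. Dnd1 against AF was 0.0888 with total counts, 0.0400 with 5ar3 alone, and -0.18 to 0.18. Tfap2a between AFX and AF ranged from -1.71 to 0.40. Between FS lines the ranges were -0.84 to 1.48 for Prdm1, -0.79 to 1.32 for Nanos3, -0.61 to 0.26 for Dnd1 and -0.97 to 0.0167 for Kit.

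Total-count scaling moved the median difference of all genes from 0.04 to 0.16 against AFX, 0.13 against AF and 0.40 against ES, and the share of calls that were lower in FS from 42.1% to 27.3% against AFX and from 47.6% to 29.5% against ES. For AFX and AF against ES the median moved from 0.01 to 0.25 and 0.29, and the share of lower calls from 48.0% to 35.3% and from 47.6% to 33.7%. Over all genes, the 927 calls of FS against AFX became 1639 with DESeq2, 571 with only the groups compared, 1782 with 5ar3 alone, 1429 with 1 mean per line, and 539, 487 and 383 without AFX passages 12, 5 and 8. The 3089 against AF became 1787, 1977 and 1939 without AF passages 13, 14 and 15. The 791 of AFX against AF became 1383 with DESeq2 and 2289 with only the groups compared, and at least 355 without a library. The 720 between FS lines became 1292 with DESeq2 and 398 with only the groups compared, and ranged from 289 to 1564 without a library. Depth limits Prdm1, Tfap2a, Nanos3 and Dnd1 in FS, which rest on 15 counts or fewer a library.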
